A study of Homo sapiens with 4 samples.

Results

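The nuclear-encoded oxidative phosphorylation genes were taken by their symbols, as all genes whose name begins with NDUFA, NDUFB, NDUFC, NDUFS or NDUFV and a digit, with SDHA to SDHD, with UQCR, with COX4 to COX8, or with ATP5. This gave 91 of the 23287 gene symbols in the RNA-seq files, and they were assigned to the 5 complexes of the chain by their prefix. The rule used names only and no measured value. It also took 4 genes that share a prefix but encode no subunit (COX4NB, COX7A2L, ATP5S and ATP5SL), as well as a few readthrough genes and pseudogenes, and they are marked below.

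The inner mitochondrial membrane holds the chain that these genes encode. Complexes I and II feed electrons from NADH and succinate to ubiquinone, complex III passes them to cytochrome c, and complex IV reduces oxygen. Complexes I, III and IV pump protons, and complex V, the ATP synthase, lets them flow back through its rotating ring of c subunits to make ATP. In most tissues the transcription of these genes is coordinated by NRF1, GABPA, YY1 and ESRRA with coactivators of the PGC-1 family.

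The study measured the early response of T47D cells, a breast cancer line positive for the progesterone receptor (PR), to the synthetic progestin R5020. Cells were kept in medium with charcoal-stripped serum, which removes steroids, and then received 10 nM R5020 or the ethanol vehicle (EtOH) for 3 h before poly(A)+ RNA was sequenced. PR binding sites were mapped by ChIP-seq after 10 nM R5020 for 1 h, with input DNA as the control. There was 1 library per condition, so a difference between EtOH and R5020 has no replicate check, no p-value or standard deviation was computed, and the words higher and lower describe these libraries.

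Levels are given as FPKM, counts of read fragments divided by transcript length and by library size, summed over the transcripts of a gene. Differences are given as the log2 ratio of (FPKM + 1) in R5020 over EtOH, which understates the difference of genes with low values. Genes that reached an FPKM of 1 in either library were retained, and a gene was counted as higher or lower from 1.5-fold on. These steps retained 11010 genes of the series and 79 of the 91 oxidative phosphorylation genes. The 79 genes rested on 133.7 to 30937 implied 50-nt reads in EtOH, with a median of 1844, so reads were not scarce for any of them. PGR, ESR1, GATA3, FOXA1 and KRT19, markers of luminal T47D cells, had FPKM values between 17.2 and 608 in EtOH, 4 of these 5 were at least 1.5-fold lower in R5020 (PGR, the receptor's own gene, with 23.7 and 15.3), and the 4 basal markers KRT5, KRT14, TP63 and VIM were below 1 in both libraries. KRT8 and KRT18 carried a failed estimate in EtOH and were not used. Of 4 stromal and immune markers, 3 were below 1 in both libraries and COL1A1 measured 5.12 in EtOH and 3.31 in R5020.

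None of the 79 retained genes was at least 1.5-fold higher in R5020, whereas 7.65% of all retained genes were. The 4 genes at least 1.5-fold lower (5.06%) were NDUFB2, ATP5D, NDUFB1 and COX8A, beside 4.10% of all retained genes. This order of the shares turned under other scalings, to the same 4 genes against 8.42% of all retained genes with each library scaled to the same FPKM total, and to 3 genes (3.80%) against 7.78% by read coverage. The chain as a group stayed close to its EtOH level, since 64 of 79 genes (81.0%) differed by less than 1.25-fold, beside 72.0% of all retained genes. The median FPKM in EtOH was 21.3 for the group and 5.09 for all retained genes. The share that differed by less than 1.25-fold was 84.4% for the mitochondrial ribosome, 86.5% for the proteasome and 70.4% for the cytosolic ribosome. The log2 ratio was below 0 for 50 of the 79 genes (63.3%), beside 49.1% of all retained genes. Its median was −0.07 for the oxidative phosphorylation genes and 0.01 for all retained genes, and the middle 50% of the former lay between −0.25 and 0.07. With transcript length taken into account, as described below, the small excess of genes below 0 was not seen.

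**Figure D1:**
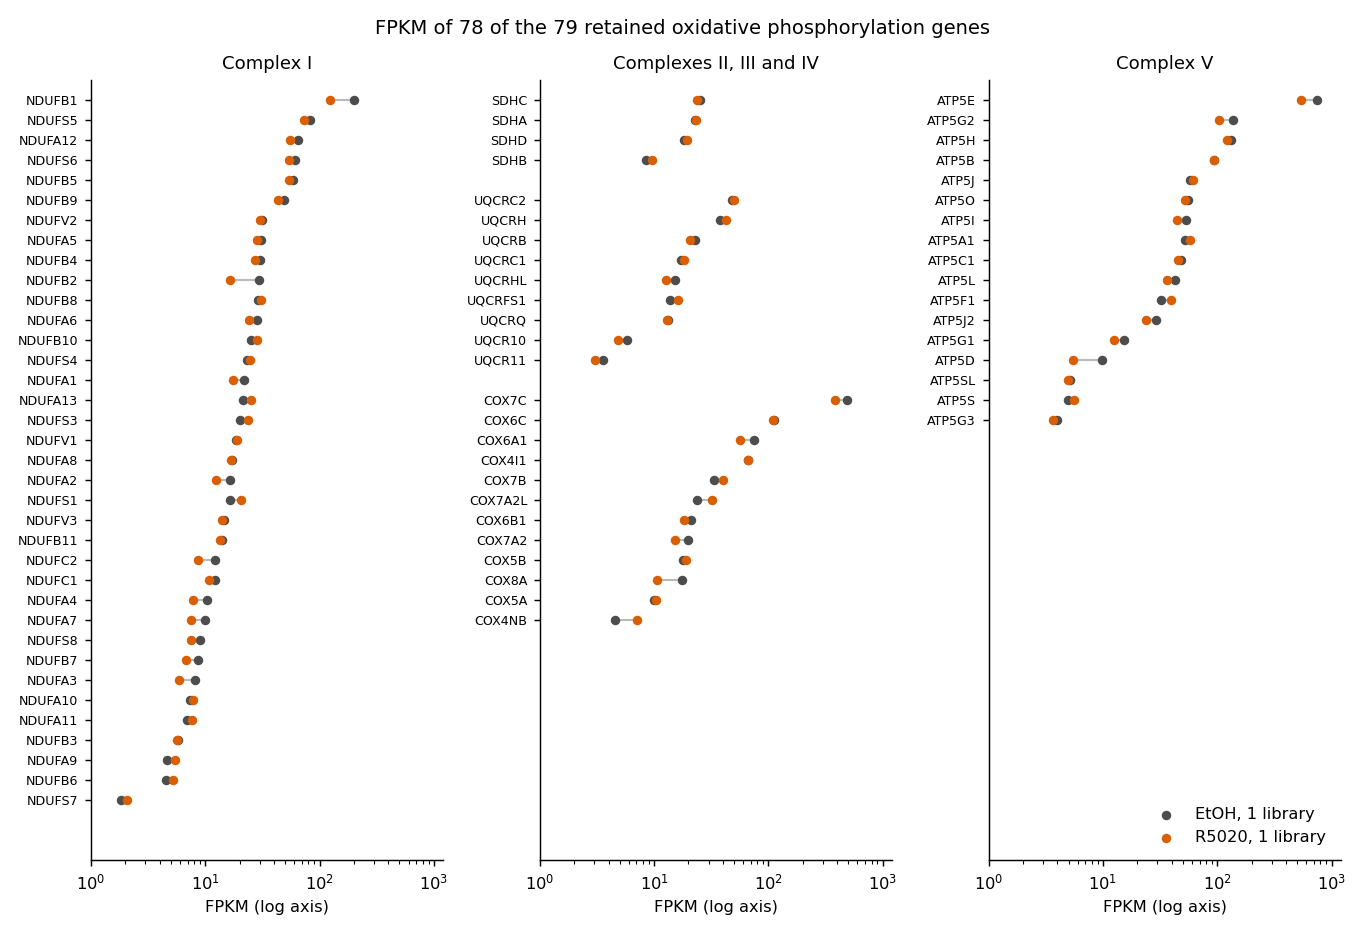
FPKM on a log axis of 78 of the 79 retained genes in the EtOH library (grey) and in the R5020 library (orange), ordered within each complex by the EtOH value. Most pairs of points nearly coincide, and the wide gaps belong to NDUFB1, NDUFB2, COX8A and ATP5D, all lower in R5020, and to COX4NB, higher in R5020.

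The levels spanned a wide range that was kept in both libraries. ATP5E, the epsilon subunit of the ATP synthase, was the highest gene of the group measuring 745 FPKM in EtOH and 539 in R5020, and it ranked 11 among all genes in EtOH. COX7C, a small subunit of complex IV, followed with 483 in EtOH and 386 in R5020. NDUFB1, a small accessory subunit of complex I, came next with 202 in EtOH and 124 in R5020. These 3 genes, with transcripts of 407 to 439 nt, held 38.7% of the summed FPKM of the group in EtOH. Their EtOH values lay above their own deposited confidence intervals, so these levels and the shares of the sums are uncertain. The intervals were 542 to 570 for ATP5E, 171 to 186 for COX7C and 57.1 to 67.0 for NDUFB1. The lowest retained gene was NDUFS7, a core iron-sulfur subunit of complex I, with 1.84 in EtOH and 2.07 in R5020. Within complex I alone, whose subunits are present once in the assembled enzyme, the retained genes spanned 110-fold in FPKM in EtOH.

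Summed over complexes, the FPKM of complexes I, IV and V was lower in R5020 and that of complexes II and III was nearly equal. Complex V held the largest sum, 1520 in EtOH and 1251 in R5020, a log2 ratio of the sums of −0.28. Complex I summed to 1040 in EtOH and 896 in R5020, a log2 ratio of −0.21. Complex IV summed to 886 and 773, a log2 ratio of −0.20. The 2 complexes with the smallest sums, which hold no gene above 50 FPKM, differed by less than 3% between the libraries. Complex II measured 74.3 in EtOH and 76.4 in R5020, and complex III 177 and 181, with log2 ratios of 0.04 and 0.03 that became −0.05 and −0.06 when each library was scaled to the same FPKM total. The same scaling gave −0.30 for complex I, −0.29 for complex IV and −0.37 for complex V.

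The differences of the sums rested largely on a few genes. ATP5E made up 49.0% of the complex V sum in EtOH, and without it the log2 ratio of that complex was −0.12. COX7C made up 54.5% of the complex IV sum, and without it the log2 ratio was −0.06. Without NDUFB1, complex I was at −0.12. Together, ATP5E, COX7C and NDUFB1 accounted for 73.3% of the difference of the whole group, which summed to 3697 in EtOH and 3178 in R5020, a log2 ratio of −0.22. The other genes together measured −0.09.

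Within complex I, 37 of 39 genes were retained, 2 were at least 1.5-fold lower and the median log2 ratio was −0.10. Its 7 core subunits, which carry the flavin and iron-sulfur clusters, showed a median of 0.03, and its 30 retained accessory subunits a median of −0.17. Their median transcript lengths also differed, at 959 nt for the core and 722.5 nt for the accessory subunits, and the ratio moved with length, as described below. NDUFS1, a core subunit that carries iron-sulfur clusters, had the highest ratio of the complex, with 16.3 in EtOH and 20.5 in R5020 (0.31). NDUFS3, another core subunit, measured 20.1 and 23.7 (0.23). NDUFV1, the subunit that binds NADH and flavin, was nearly equal with 18.6 and 19.1 (0.03), as was NDUFV2 with 31.5 and 29.8 (−0.07). The iron-sulfur subunit NDUFS8 measured 8.93 and 7.44 (−0.23).

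NDUFB2, an accessory subunit of the membrane arm (hg19, chr7:140396481-140406446, plus strand), had the lowest ratio of the whole group. Its FPKM was 29.4 in EtOH and 16.5 in R5020, which is 1.73-fold lower on the scale with the pseudocount (−0.79), on 1337 and 725 implied reads. NDUFB1 (chr14:92582468-92588153, minus strand) was 1.62-fold lower (−0.70), on 8048 and 4695 implied reads. Both calls stood under every other scaling tried and were lost when the median of genes of similar transcript length was subtracted, which left −0.51 and −0.42. The next highest accessory subunits, NDUFS5 with 82.4 and 72.8 (−0.18) and NDUFA12 with 64.9 and 54.9 (−0.24), were lower by less. NDUFA4, now counted as a subunit of complex IV, measured 10.3 and 7.79 (−0.36), and moving it there altered neither sum by more than 0.01 on the log2 scale.

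Complex II, which also oxidises succinate in the TCA cycle, held no gene 1.5-fold apart. SDHC and SDHD, the membrane anchors, measured 25.0 in EtOH and 23.7 in R5020 (−0.07) and 18.2 and 19.6 (0.10). The flavoprotein SDHA measured 22.6 and 23.5 (0.05), and the iron-sulfur subunit SDHB 8.46 and 9.65 (0.17). In complex III, 9 of 10 genes were retained and none was 1.5-fold apart. The core protein UQCRC2 measured 48.1 and 49.7 (0.05), the hinge protein UQCRH 37.4 and 42.4 (0.18), and UQCRB, which contributes to the ubiquinone site, 22.7 and 20.6 (−0.13). The Rieske iron-sulfur protein UQCRFS1 had the highest ratio, 13.7 and 16.2 (0.23), and UQCRHL the lowest, 15.3 and 12.7 (−0.25). UQCRHL is a near-identical copy of UQCRH, and the authors discarded reads with several positions, so the values of both are uncertain.

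In complex IV, 12 of 18 genes were retained, and the catalytic core of this complex is encoded by mitochondrial genes that were not analysed here. COX8A, the smallest nuclear-encoded subunit (chr11:63742079-63744015, plus strand), measured 17.5 in EtOH and 10.7 in R5020 and was 1.58-fold lower (−0.66). Its deposited read coverage, scaled to the library, gave −0.45, short of the threshold. COX6C, at 112 and 110 (−0.03), and COX4I1, at 66.7 and 65.7 (−0.02), were among the highest of the complex and nearly equal between the libraries. COX6A1 measured 74.8 and 56.7 (−0.39), and COX7A2 19.9 and 15.2 (−0.37). COX7B, with 33.5 and 40.4 (0.26), had the highest ratio among the subunits. The highest ratios under the prefix belonged to genes that encode no subunit, COX4NB (EMC8, of the membrane protein insertion complex of the endoplasmic reticulum) with 4.59 and 7.09 (0.53), and COX7A2L, a factor of respiratory supercomplexes, with 23.9 and 32.1 (0.41).

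Several complex IV subunits come in a widely expressed and a tissue-restricted form, and T47D cells held the widely expressed form of each pair in both libraries. COX4I1 measured 66.7 in EtOH, while COX4I2, the form of lung and hypoxia, was listed at 0 in both libraries. COX6A2, the form of heart and muscle, and COX8C, a testis form, were also listed at 0 in both, beside 74.8 for COX6A1 and 17.5 for COX8A in EtOH. COX6B1 measured 20.9 in EtOH and 18.4 in R5020 (−0.17), beside 0.43 and 0.38 for the testis form COX6B2. COX7A2 stood at 19.9 in EtOH beside 0.14 for the muscle form COX7A1, and COX7B at 33.5 beside 0.29 for COX7B2. After R5020, none of the alternative forms reached an FPKM of 1.

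In complex V, 17 of 20 genes were retained, the median log2 ratio was −0.09, and the lowest ratio belonged to the central stalk. The catalytic head of the ATP synthase, F1, held its alpha and beta subunits, ATP5A1 with 52.3 in EtOH and 57.3 in R5020 (0.13) and ATP5B with 93.0 and 94.4 (0.02). ATP5C1, the gamma subunit of the rotor, measured 48.7 and 45.6 (−0.09). Its partners in the stalk were lower, ATP5D, the delta subunit (chr19:1241749-1244824, plus strand), with 9.77 and 5.49, 1.66-fold lower (−0.73), and ATP5E with a ratio of −0.47. The value of ATP5D is a sum over 2 transcripts, of which that of 700 nt measured 5.11 and 2.06 and that of 996 nt 4.66 and 3.43 (−0.35). The shorter of them alone was past 1.5-fold.

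The c subunit of the rotor ring is made from 3 genes whose mature proteins are the same. ATP5G2 supplied most of the transcript, with 136 in EtOH and 104 in R5020 (−0.39), beside 15.2 and 12.4 for ATP5G1 (−0.28) and 3.99 and 3.69 for ATP5G3 (−0.09). All 3 were lower in R5020, none by 1.5-fold. In the peripheral stalk and the membrane part, ATP5H measured 133 and 121 (−0.14), ATP5J 58.4 and 61.1 (0.06), ATP5O 55.4 and 52.0 (−0.09) and ATP5F1 32.4 and 39.7, the highest ratio of the complex (0.28). ATP5S and ATP5SL, which encode no subunit, measured 5.00 and 5.56 (0.13) and 5.18 and 4.92 (−0.06).

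The 12 genes that were not retained included 6 listed at 0 in both libraries, which were COX4I2, COX6A2, COX8C, NDUFA4L2, a gene known from hypoxia, and the readthrough genes NDUFC2-KCTD14 and ATP5J2-PTCD1. COX6B2, COX7A1, COX7B2, ATP5L2 and the pseudogenes UQCRBP1 and ATP5EP2 had values under 1.

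**Figure D2:**
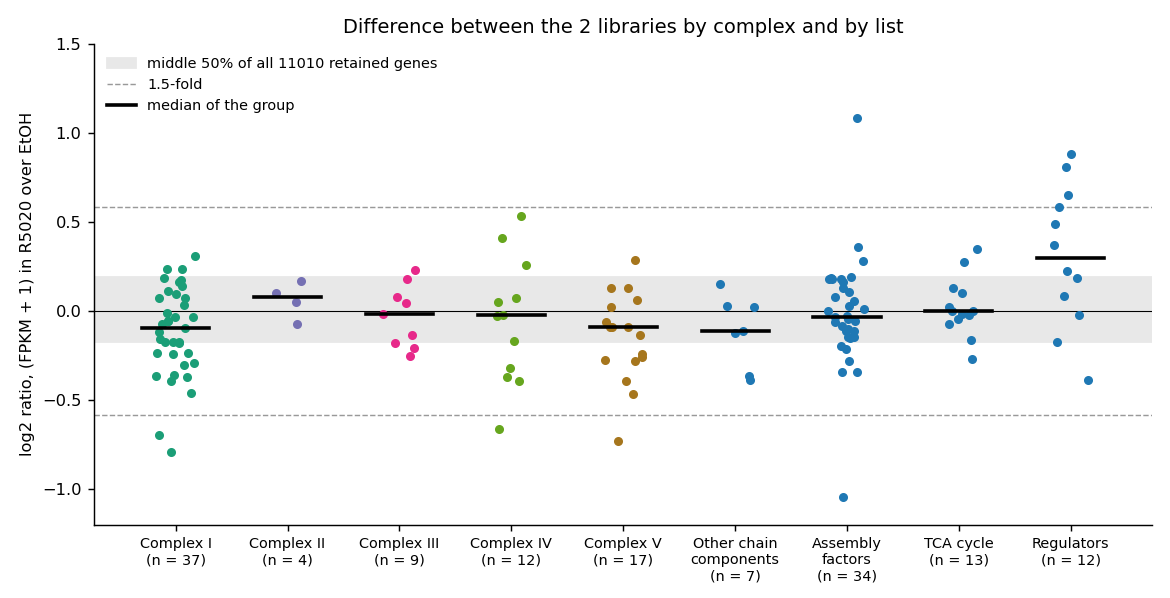
Log2 ratio of (FPKM + 1) in R5020 over EtOH for each retained gene of the 5 complexes and of 4 related lists, with the median of each group (black bar), the 1.5-fold limits (dashed) and the middle 50% of all 11010 retained genes (grey band). The medians of the complexes lie between −0.10 and 0.08, and the regulators, at 0.30, lie above them.

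Lists of related genes were read in the same way, beside the 7.65% higher and 4.10% lower among all retained genes. Of 34 retained assembly factors, which help to build the complexes, 1 was higher and 1 was lower, and the median was −0.03. TMEM70, an assembly factor of the ATP synthase, measured 6.23 in EtOH and 14.3 in R5020 (1.08). SCO2, a copper chaperone of complex IV, measured 1.06 and was listed at 0 in R5020. COX17, a copper chaperone and the highest of this list, measured 99.8 and 78.7 (−0.34). None of the 7 other components of electron transfer was 1.5-fold apart, with a median of −0.11, and their highest member ETFA, an electron-transfer flavoprotein, measured 74.8 and 68.7 (−0.12). None of the 13 TCA cycle genes was 1.5-fold apart either, with a median of −0.00, and malate dehydrogenase MDH2 was the highest with 59.2 and 63.6 (0.10).

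The list of regulators stood apart from the oxidative phosphorylation genes. It also holds factors that act on the mitochondrial genome, whose own genes were not analysed here. PPARGC1B was retained through its R5020 value alone, with 0.50 in EtOH and 1.11 in R5020 (0.49). PPARGC1A, with 0.27 in EtOH and 0.06 in R5020, was not retained, and neither were ESRRB and ESRRG, listed at 0 in both. Of 12 retained regulators, 4 were at least 1.5-fold higher in R5020, none was lower, and the median log2 ratio was 0.30. This median includes PPARGC1B and leaves out PPARGC1A. ESRRA, an orphan nuclear receptor that drives mitochondrial genes, measured 3.68 in EtOH and 7.63 in R5020 (0.88). The transcription factor NRF1 measured 1.97 and 4.22 (0.81), although its highest transcript alone gave 0.40. PPRC1, a coactivator of the PGC-1 family, measured 5.43 and 9.12 (0.65), which became 0.58, just under the threshold, after subtraction of the median for its transcript length. TFB2M, a transcription factor of the mitochondrial genome, measured 5.96 and 9.45 and lay at the threshold (0.59), below which it fell when the libraries were rescaled. YY1, the highest of the list, measured 22.8 and 26.7 (0.22), GABPA 5.45 and 5.36 (−0.02), and TFAM, which packages mitochondrial DNA, 12.8 and 14.7 (0.18). POLRMT, the mitochondrial RNA polymerase, had the lowest ratio with 1.92 and 1.23 (−0.39).

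**Figure D3:**
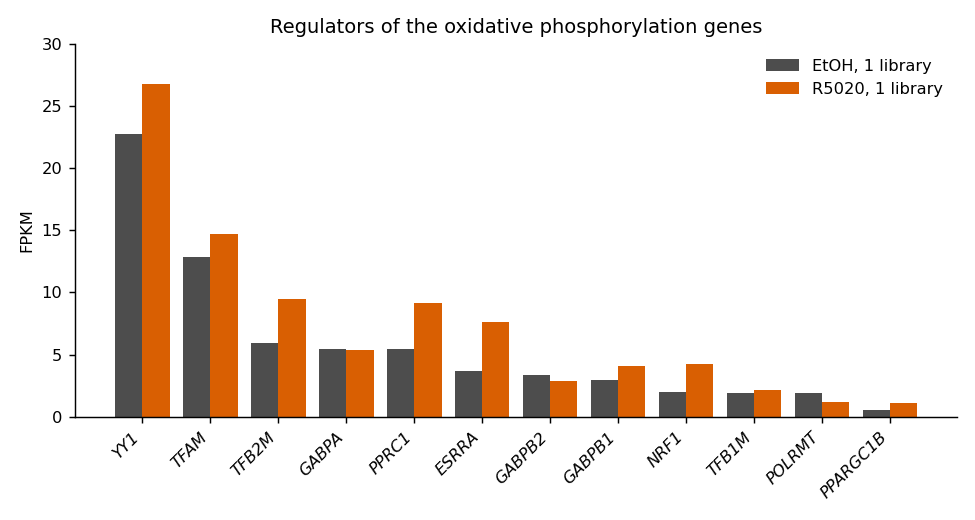
FPKM of the 12 retained regulators in the EtOH library (grey bars) and the R5020 library (orange bars), ordered by the EtOH value. ESRRA, NRF1, PPRC1 and TFB2M are at least 1.5-fold higher in R5020, while YY1, TFAM and GABPA lie close to their EtOH values.

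Of 77 retained genes of the mitochondrial ribosome, 1 was higher, MRPS12, listed at 0 in EtOH and at 1.33 in R5020, none was lower, and the median was 0.02, with MRPL51 the highest (38.3 and 33.6, −0.19). None of 37 retained proteasome genes was 1.5-fold apart (median 0.01), and PSMA6, the highest, measured 103 in both. The 98 genes with a cytosolic ribosomal protein symbol, which include kinases and pseudogenes under the same prefix, had a median of −0.14, with 4 higher and 5 lower, and RPL38, the highest, measured 838 and 591 (−0.50). The lower genes were RPS15 (−0.87), RPL21 (−2.60), RPS19 (−0.64), RPL18 (−0.71) and the pseudogene RPS26P11 (−0.90). The higher ones were the kinases RPS6KA5 (1.66) and RPS6KA1 (0.64), the readthrough gene RPS10-NUDT3 (0.62) and the pseudogene RPL21P28, listed at 0 in EtOH and at 124 in R5020. RPL21 and RPL21P28 are close copies, so the values of both are uncertain.

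Transcript length moved with the ratio. The retained oxidative phosphorylation genes had a median transcript length of 857 nt, against 2889 nt for all retained genes, and 59.5% of them, against 7.75% of all, were under 1000 nt. Across the 79 genes, the Spearman coefficient between length and log2 ratio was 0.41, and across all 11010 genes it was 0.19. Genes share their library and are not replicates, so these coefficients are a description only. Among transcripts under 800 nt, the 34 oxidative phosphorylation genes had a median of −0.21 and the 519 genes of this length a median of −0.15, of which 17.1% were at least 1.5-fold lower. Between 800 and 1499 nt the medians were −0.05 for 23 genes of the group and −0.08 for all 1347, and from 1500 nt on they were 0.03 for 22 and 0.02 for 9144.

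The oxidative phosphorylation genes therefore lay with other genes of their length. After the median of all retained genes in the same length class was subtracted, a step chosen after the data were seen, the median of the 79 genes was 0.02 and 34 of them lay below their class. ATP5D alone remained at least 1.5-fold lower. NDUFB1, NDUFB2 and COX8A belong to the class from 400 to 599 nt, in which the median of all 135 genes was −0.28 and that of the 20 genes of the group −0.28. The part of library preparation or of RNA integrity in this relation was not tested.

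**Figure D4:**
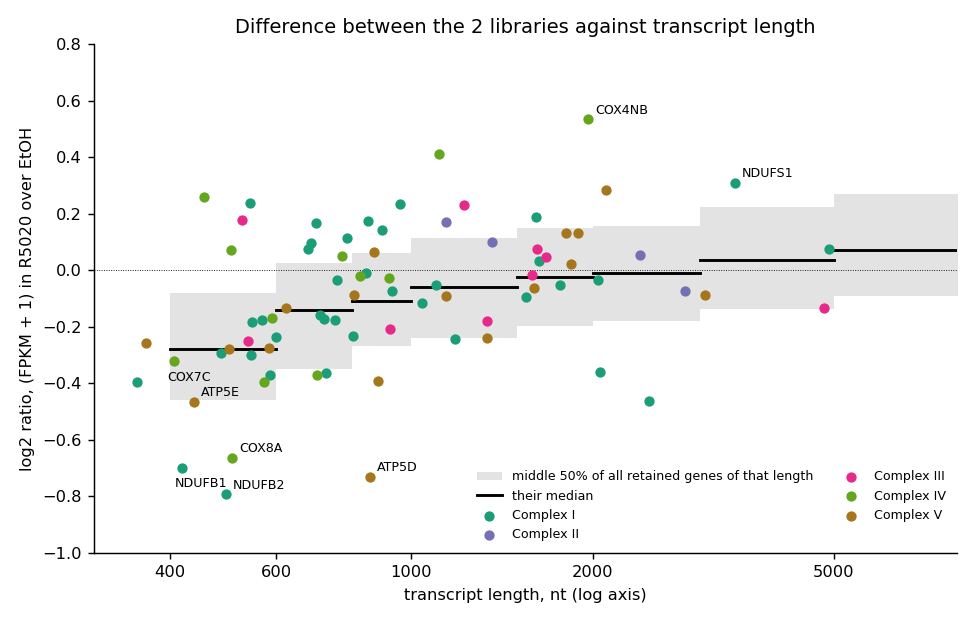
Log2 ratio of (FPKM + 1) in R5020 over EtOH against transcript length (log axis) for the 79 retained genes, coloured by complex, over the median (black line) and middle 50% (grey) of all retained genes in classes of length from 400 nt on. The class medians climb from −0.28 at 400 to 599 nt to 0.07 at 5000 nt or more, and most points lie within the grey steps.

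PR binding sites were counted for a gene when the nearest edge of a site lay in or within 10 kb of any of its transcripts. Of the 91 genes, 32 (35.2%, 95% Wilson interval 26.1% to 45.4%) had such a site, beside 27.4% of all genes. Of the 79 retained genes, 27 (34.2%, 24.7% to 45.2%) had a site, beside 33.0% of all retained genes. A site inside the locus was found for 14 of 79 (17.7%, 10.9% to 27.6%), beside 22.5% of all retained genes, and the loci of the group are shorter, with a median of 9966 bp against 27111 bp. These intervals cover counting error only, and all 3 background shares lie inside them.

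The sites near these genes were of moderate score. The score is −10 times the log10 of the p-value of the peak caller, and it is at least 50 for each of the 11181 deposited sites. The 43 sites near the group had a median score of 70.5, against 74.5 for all sites, and 5 of them (11.6%) reached 100, against 16.3% of all sites. The highest score in the group, 123, lay far below the highest of all sites, 1965.

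For 11 retained genes, the midpoint of a site lay within 1 kb of an annotated start. The highest of these sites (chr10:7830303-7830655, score 123) lay in an intron of ATP5C1, with its midpoint 386 bases after the start. The site at NDUFA10, an accessory subunit of complex I, spanned the start (chr2:240964637-240965085, score 114). Sites also spanned the starts of ATP5H (chr17:73042692-73043473, score 80.0) and of ATP5I, the e subunit of the ATP synthase (chr4:667944-668329, score 87.1). The site at COX4I1 (chr16:85833218-85833747, score 77.7), in a noncoding exon part, is shared with the divergent gene COX4NB. The other genes with such sites were SDHC, NDUFC2, NDUFA2, ATP5S and ATP5SL, with scores of 82.3 or less. Just beyond this distance, at 1070 bases after a start, a site lay in an intron of ATP5J that overlaps a noncoding exon part of the regulator gene GABPA (chr21:27106770-27107021, score 72.9).

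Genes with and without a site had similar ratios. The median was −0.06 for the 27 retained genes with a site in or within 10 kb and −0.09 for the 52 without one, and 1 and 3 of them were at least 1.5-fold lower. Of the 4 lower genes, ATP5D had a site, in an intron of the neighbouring gene MIDN (chr19:1252381-1252739, score 89.2) and 7556 bp from its locus. Most of the genes with a site at or close to a start lay near their EtOH level, with ratios of −0.09 for ATP5C1, 0.07 for NDUFA10, −0.14 for ATP5H and −0.02 for COX4I1, or were lower by less than 1.5-fold, with −0.26 for ATP5I, −0.36 for NDUFA2 (16.3 and 12.5) and −0.46 for NDUFC2 (12.2 and 8.60). The exception was COX4NB, with the highest ratio of the group (0.53). Among all retained genes, 10.3% of those with a site were higher and 5.04% lower, against 6.33% and 3.63% of those without.

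Farther from a start, sites were also found for NDUFS3, NDUFS8, NDUFV1, SDHB, COX6C and ATP5J2, and for NDUFS6, NDUFS7, NDUFB10, NDUFA7, NDUFA8 and UQCR11. The ratios of the last 6 lay between −0.37 for NDUFA7 (9.92 and 7.45), an accessory subunit of complex I, and 0.17 for NDUFB10 (25.0 and 28.1), another. NDUFA8 (17.1 and 17.0, −0.01) and NDUFS7 had sites with scores of 118 and 106, at 8825 and 6981 bp from their loci.

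**Figure D5:**
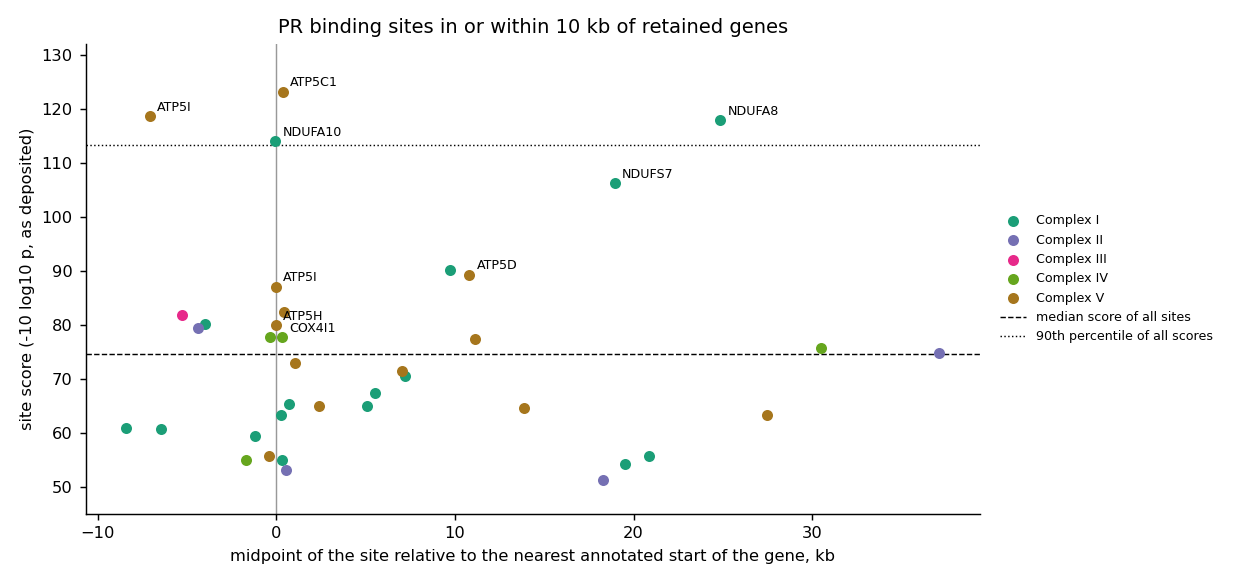
Score of each PR binding site in or within 10 kb of a retained gene against the distance of its midpoint from the nearest annotated start of that gene, coloured by complex, with the median (dashed) and the 90th percentile (dotted) of all site scores. Of the sites at a start, those of ATP5C1 and NDUFA10 pass the 90th percentile of 113, and most other sites lie near or below the median of 74.5.

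The sequences under the sites were read from hg19, 300 bases around each midpoint. AGAACA, the hexamer that PR shares with other steroid receptors, was searched on both strands. It stood in 6 of 43 windows near the group (14.0%), in 17.7% of the windows of 11178 sites and in 19.1% of windows 5 kb to either side of the sites, and its share rose with the score, to 21.9% of sites with a score of at least 100 and 31.0% of those with at least 200. The windows near the group had a median GC content of 60.3%, against 57.3% for all sites. Printed here on the plus strand are the 2 windows with the highest scores within 1 kb of a start, ATP5C1 and NDUFA10, neither of which holds the hexamer, and the window near ATP5J2, which is among the 2 highest-scoring near retained genes that hold it, with the hexamer or its reverse complement in capitals. They cover chr10:7830329-7830628, chr2:240964711-240965010 and chr7:99049828-99050127.
ATP5C1: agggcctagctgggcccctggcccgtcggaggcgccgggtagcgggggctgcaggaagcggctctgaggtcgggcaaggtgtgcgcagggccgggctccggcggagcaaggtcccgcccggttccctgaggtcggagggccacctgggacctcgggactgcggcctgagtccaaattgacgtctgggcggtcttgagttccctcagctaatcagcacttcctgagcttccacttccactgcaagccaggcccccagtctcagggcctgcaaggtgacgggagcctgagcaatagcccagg
NDUFA10: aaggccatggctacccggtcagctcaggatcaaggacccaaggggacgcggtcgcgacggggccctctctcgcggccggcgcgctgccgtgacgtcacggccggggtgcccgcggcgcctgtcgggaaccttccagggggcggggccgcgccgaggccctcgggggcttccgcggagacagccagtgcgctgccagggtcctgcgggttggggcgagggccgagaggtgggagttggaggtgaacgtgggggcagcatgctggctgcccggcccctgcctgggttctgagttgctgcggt
ATP5J2: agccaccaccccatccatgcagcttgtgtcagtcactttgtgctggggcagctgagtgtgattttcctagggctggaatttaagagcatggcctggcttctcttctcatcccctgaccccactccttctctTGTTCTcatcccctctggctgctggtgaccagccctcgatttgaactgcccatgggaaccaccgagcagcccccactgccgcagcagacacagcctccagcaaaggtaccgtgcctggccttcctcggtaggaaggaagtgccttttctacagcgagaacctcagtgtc

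The site near ATP5J2, in introns of PTCD1 and CPSF4 and 5550 bp from its deposited transcripts, had a score of 64.5. The gene was not 1.5-fold apart, measuring 29.1 in EtOH and 23.8 in R5020 (−0.28).

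Motifs of the regulators NRF1, GABPA, YY1 and ESRRA were searched on both strands of the RefSeq promoters in build GRCh38.p14. These promoters ran from 250 bases before to 50 bases after the start. Of these regulators, NRF1 (0.81) and ESRRA (0.88) were at least 1.5-fold higher in R5020, and GABPA (−0.02) and YY1 (0.22) were not. A promoter was at hand for 62 of the 75 retained genes that encode a subunit. The NRF1 motif CGCANGCG stood in 21 of them (33.9%), against 20.5% of promoters of retained genes and 10.6% of all 27305 promoters. The ETS motif CCGGAAG, which GABPA reads, stood in 19 (30.6%, against 21.4% and 10.7%), and the YY1 motif AAGATGGC in 11 (17.7%, against 6.16% and 3.03%). The ESRRA motif AAGGTCA stood in 8 (12.9%, against 2.53% and 3.97%). AGAACA stood in 7 (11.3%), against 8.70% of promoters of retained genes and 14.9% of all promoters. These motifs can share bases at their ends, and a match describes letters and not a bound site.

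At least 1 of the 4 motifs of these regulators was held by 39 of the 62 promoters (62.9%), against 42.2% of promoters of retained genes and 24.5% of all promoters. Of the 62, 4 (6.45%) held 3 of the 4, against 0.51% and 0.22%. They belong to ATP5J, SDHD, SDHB and NDUFS7, and are shown 5′ to 3′ on the strand of the gene with the motifs in capitals. In GRCh38.p14 they are chr21:25735005-25735304 (minus strand), chr11:112086623-112086922 (plus strand), chr1:17053983-17054282 (minus strand) and chr19:1383657-1383956 (plus strand).
ATP5J: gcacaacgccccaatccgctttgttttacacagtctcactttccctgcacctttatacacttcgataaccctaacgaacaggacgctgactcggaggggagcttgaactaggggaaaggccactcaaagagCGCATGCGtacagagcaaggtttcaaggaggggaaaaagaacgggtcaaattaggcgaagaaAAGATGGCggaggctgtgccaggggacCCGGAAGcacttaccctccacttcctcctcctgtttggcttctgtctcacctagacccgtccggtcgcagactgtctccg
SDHD: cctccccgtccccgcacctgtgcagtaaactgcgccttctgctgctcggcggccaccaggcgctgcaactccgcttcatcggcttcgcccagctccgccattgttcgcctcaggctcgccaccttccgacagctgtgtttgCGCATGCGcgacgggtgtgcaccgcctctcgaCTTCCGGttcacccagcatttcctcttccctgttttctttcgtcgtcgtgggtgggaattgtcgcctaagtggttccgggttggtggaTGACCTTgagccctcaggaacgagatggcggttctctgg
SDHB: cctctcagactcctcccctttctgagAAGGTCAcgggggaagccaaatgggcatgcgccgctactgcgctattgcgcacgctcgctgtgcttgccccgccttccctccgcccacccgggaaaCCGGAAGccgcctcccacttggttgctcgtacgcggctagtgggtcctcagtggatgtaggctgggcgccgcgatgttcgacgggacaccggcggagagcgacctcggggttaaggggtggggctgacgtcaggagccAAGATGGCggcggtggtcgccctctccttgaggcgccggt
NDUFS7: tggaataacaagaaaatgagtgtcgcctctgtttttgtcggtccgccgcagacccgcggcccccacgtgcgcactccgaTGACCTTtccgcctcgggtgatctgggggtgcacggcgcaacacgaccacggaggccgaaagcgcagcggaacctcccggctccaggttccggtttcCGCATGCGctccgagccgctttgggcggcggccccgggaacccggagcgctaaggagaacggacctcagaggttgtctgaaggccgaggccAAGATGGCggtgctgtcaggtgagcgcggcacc

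In ATP5J the NRF1, YY1 and ETS motifs follow each other, in SDHD the NRF1, ETS and ESRRA motifs, in SDHB the ESRRA, ETS and YY1 motifs, and in NDUFS7 the ESRRA, NRF1 and YY1 motifs. All 4 genes lay near their EtOH level, with log2 ratios of 0.06, 0.10, 0.17 and 0.11. Over the 62 genes, the median log2 ratio was −0.09 for the 21 with the NRF1 motif and −0.05 for the 41 without it, and −0.13 for the 8 with the ESRRA motif and −0.05 for the 54 without it. For the ETS motif the medians were −0.02 for 19 genes and −0.07 for 43, and for the YY1 motif 0.07 for 11 and −0.09 for 51. After subtraction of the median of the length class, the medians with and without the motif were nearly equal for NRF1 (both 0.04) and ESRRA (both 0.04). They were 0.09 with and 0.04 without the ETS motif. For the YY1 motif they stayed apart, at 0.17 with and 0.01 without it, and 3 of the 11 genes with it lay below their class. Among all retained genes with a promoter at hand, no such difference was seen for the YY1 motif. Without subtraction for length, their median was 0.002 for the 539 genes with it and 0.008 for the 8198 without it.

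The 7 genes with AGAACA in the promoter were NDUFB2, COX8A, COX7A2, NDUFA3, NDUFA12, ATP5L and ATP5C1. All 7 had a log2 ratio below 0, with a median of −0.37, beside −0.02 for the 55 genes without the hexamer. NDUFA3, an accessory subunit of complex I, measured 8.08 in EtOH and 5.91 in R5020 (−0.40), and ATP5L, the g subunit of the ATP synthase, 42.9 and 36.2 (−0.24). Their median transcript length was 599 nt against 824 nt, and after subtraction of the median of the length class 6 of the 7 remained below 0, with a median of −0.23. Among all retained genes no such difference was seen, with a median of 0.02 for the 759 genes with the hexamer and 0.01 for the 7978 without it.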

How the data were processed

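The RNA-seq libraries of EtOH- and R5020-treated cells and the PR ChIP-seq library were analysed, and input DNA entered only as the authors' control. For RNA-seq the authors used Trimmomatic for trimming, TopHat for alignment to hg19, with multi-mapping reads discarded, and Cufflinks for abundance. The deposited values per RefSeq transcript are FPKM, normalised by the authors to transcript length and library, with a coverage and the transcript length. For ChIP-seq the authors aligned reads with Bowtie 1.1.2 and called sites with MACS, and the deposited score is −10 log10 of the p-value. Per the labels, the tools named are Bowtie, TopHat and Cufflinks.

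The 41138 transcripts were summed into 23287 symbols. The 8 genes with a failed estimate were left out. A pseudocount of 1, a minimum FPKM of 1 and a threshold of 1.5-fold were used without a test. Implied reads are coverage times length over 50 nt. They summed to 35151493 in EtOH and 36203604 in R5020. The deposited FPKM intervals were not used, since 41 of 90 member transcripts in EtOH lay outside their own interval. The transcripts of ATP5E, COX7C, NDUFB1 and COX8A were among them. Transcript length was weighted by FPKM. Strand came from GENCODE 44 on GRCh37, and current names from RefSeq by accession for 90 of 91 genes, of which 22 differ from the files (ATP5E is ATP5F1E, for example). Python 3.11.15, pandas 2.3.3 and scipy 1.17.1 were used, and the calls and site distances were tested on simulated data.

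The genes and lists were chosen with earlier results of these data known. Named were genes at least 1.5-fold different, in each complex the 3 highest in EtOH and the lowest and highest ratio, the isoform pairs, F1, c-ring and core lists, genes with a PR site within 10 kb, and of other lists the highest gene and those 1.5-fold different. Further genes were named after their values were seen. The values of 1 gene and the sequence of 1 site are not reported here, and both remain in the counts.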

Additional observations from a re-analysis of the deposited data

How the results depend on the processing

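Of 88 alternative values for the counts, medians, sums and sites, 80 stayed within 1.5 times the count or within 0.1 on the log2 scale. With a pseudocount of 0.1, 1 gene was higher (COX4NB). At 2-fold, 0 genes were lower, and after subtraction of the length-class median, 1 was (ATP5D), with a median of 0.02 in place of −0.07. Without their highest gene, the sums of complexes IV and V had log2 ratios of −0.060 and −0.12. PR sites were found for 17 of the 91 genes in the locus (18.7%, against 17.9% of all genes), for 56 within 50 kb (61.5%, against 45.6%) and for 5 with a score of at least 100 (5.49%, against 6.88%). For the 79 retained genes of the group, these shares were 17.7%, 58.2% and 6.33%. For all retained genes they were 22.5%, 52.7% and 9.18%. Scaling to TPM moved the median of all retained genes by −0.09 and that of the group to −0.17, and put 60 of 79 genes and 60.8% of all retained genes below 0. Under TPM, 48.2% of all retained genes 1.5-fold apart were higher, against 65.1% as reported, and the sums of complexes II and III measured −0.05 and −0.06. The sums of complexes I, IV and V measured −0.30, −0.29 and −0.37 under TPM, and that of the whole group −0.31. With the highest transcript of each gene in each library, complex II also measured −0.05. Subtraction of the length-class median left PPRC1 at 0.58, just under the threshold, and the highest transcript of PGR gave −0.44. The cause was not tested. No result could be checked by leaving out a replicate. No paired analysis was possible because there was 1 library per condition.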

Other observations

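Of 95 transcripts of the oxidative phosphorylation genes that reached an FPKM of 1 in either library, 9 (9.47%) were at least 1.5-fold apart, beside 19.6% of all such transcripts of the series, and 5 of these belong to genes whose sum was not. NDUFB5, an accessory subunit of complex I, had a transcript of 903 nt at 11.3 in EtOH and listed at 0 in R5020, while the gene measured 58.2 and 53.6 (−0.12). SDHC had a transcript of 2750 nt listed at 0 in EtOH and at 4.67 in R5020, while the gene measured −0.07. The others, of NDUFC1, ATP5S and NDUFB6, had values under 2 in both libraries. The split of reads between overlapping transcripts is an estimate of Cufflinks. No transcript of the group was marked as failed, so a value of 0 here is part of that estimate.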
